A study of Homo sapiens with 12 samples.

Results

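Adding pomalidomide, with or without dexamethasone, to filanesib was examined in MM.1S cells, a standard line of malignant plasma cells from multiple myeloma. The 3 arrays titled FPD were set against the 3 arrays titled F, which makes 6 of the 12 arrays of the series, over all genes of rows with exactly 1 gene symbol. All cells were exposed for 24 h. By their treatment labels, FPD cells received filanesib at 1 nM together with pomalidomide at 500 nM and dexamethasone at 10 nM. For F cells the labels disagree. Their treatment and source labels give filanesib at 1 nM with dexamethasone at 10 nM, whereas the title and the shared protocol give the letter F alone. The groups therefore differ in pomalidomide by the treatment label, and in pomalidomide plus dexamethasone by the title. The other 3 control arrays (vehicle) and 3 PD arrays (pomalidomide at 500 nM and dexamethasone at 10 nM) are used below only for comparison, mainly as another pair of groups that shares no array with F and FPD. RNA came from whole cultures of 1 cell line. No label states that replicate arrays stem from different cultures, so the p-values rest on array-to-array spread that may be purely technical.

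Filanesib blocks the kinesin spindle protein, the motor encoded by KIF11 that separates the poles of the mitotic spindle. Pomalidomide binds cereblon, the substrate receptor of a CUL4 ubiquitin ligase, and redirects it to the lymphoid transcription factors Ikaros (IKZF1) and Aiolos (IKZF3), which are then degraded. In myeloma cells loss of these proteins is known to lower the transcription factors IRF4 and MYC, on which the cells depend. Dexamethasone activates the glucocorticoid receptor, a ligand-dependent transcription factor that induces genes such as FKBP5, PER1 and DDIT4 and kills sensitive lymphoid cells. The arrays measure RNA, so degradation of a protein does not show in them.

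Values are deposited log2 expression values, in which 1 unit is a 2-fold difference. The medians of the arrays lay between 4.23 and 4.27. Correlations between arrays were 0.9903 to 0.9914 within F, 0.9907 to 0.9923 within FPD and 0.9851 to 0.9887 between them, so each pair from different groups was less alike than any pair within one. Of 7 plasma cell markers 2 (28.6%), IRF4 and SLAMF7, were called lower in FPD, beside 6.64% of all genes tested. Of the 7 markers 6 had a difference below 0, and the median was -0.11. MZB1 was at a mean of 11.18 in F and 11.13 in FPD, XBP1 at 10.78 and 10.73 and SDC1 (CD138) at 10.16 and 10.21. The myeloid markers CD14 (3.44 and 3.47) and LYZ (2.84 and 2.85) and the B cell factor PAX5 (4.64 and 4.70) lay below or near the array medians. Other members did not: CD68, the 1 call among 8 myeloid markers, had means of 8.65 and 10.08, and CR2, the 1 call among 4 B cell markers, of 6.96 and 6.01. None of 7 T cell markers and 5 stromal and epithelial markers was called, although 1 T cell marker, CD2, was called higher without F replicate 1. In bulk RNA, fewer cells in a given state and less RNA per cell cannot be told apart. With 3 arrays a group, the number of arrays limits the precision: the median standard error (SE) of a log2 difference was 0.11.

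Of 14884 genes, 1117 (7.5%) were higher and 988 (6.64%) lower in FPD than in F at a limma adjusted p under 0.05, which is what called means throughout. At least 2-fold, 106 genes (0.712%) were higher and 36 (0.242%) lower. The large differences thus lay mostly on the higher side, while 53.1% of all calls were higher. In 2091 of the 2105 calls no FPD array overlapped any F array. A small p already favours such genes, and their share over all genes was not counted, so this is no separate support. The median size of a called log2 difference was 0.48 and the smallest was 0.25. Protein-coding genes were called most often, in 1966 of 11915 (16.5%), against 83 of 1398 long noncoding RNAs (5.94%), 24 of 447 transcribed pseudogenes (5.37%) and 26 of 1072 microRNA loci (2.43%). Without F replicate 2 the lower count was 657, and with every row of the table tested the counts were 741 higher and 641 lower.

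**Figure D1:**
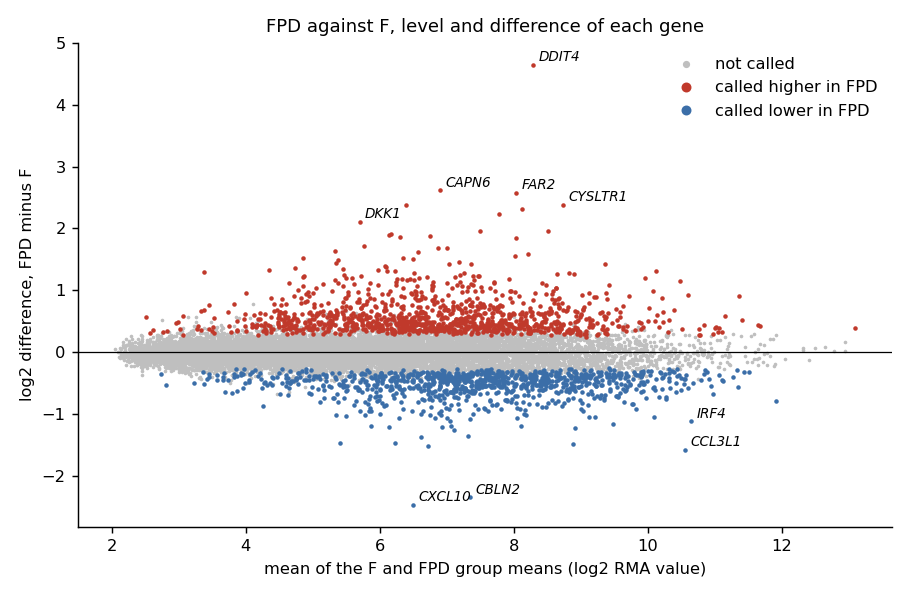
Log2 difference of FPD minus F (vertical axis) against the mean of both group means (horizontal axis, log2 RMA value) for 14884 genes. Red points are the 1117 genes called higher in FPD, blue points the 988 called lower and grey points the rest. DDIT4 stands alone at a difference of 4.65.

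DDIT4, which encodes REDD1, an inhibitor of the growth kinase mTORC1, differed most. Its values were 5.92, 5.89 and 6.09 in the F arrays and 10.62, 10.59 and 10.62 in the FPD arrays. All FPD arrays lay more than 4 units above every F array, and the difference was 4.65 (0.087 SE, limma adjusted p = 4.59e-15), or 25-fold. The next highest was CAPN6, a calpain-like protein without protease activity that binds microtubules. It was at 5.80, 5.49 and 5.50 in F and at 8.21, 8.28 and 8.14 in FPD, a difference of 2.62 (limma adjusted p = 1.61e-09). FAR2, which reduces fatty acyl-CoA to fatty alcohols, rose from 6.38, 6.84 and 7.03 to 9.24, 9.47 and 9.26 (difference 2.58). In each of these genes the groups stood clearly apart, with FAR2 spread most within F.

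Surface and signalling genes followed. CYSLTR1, the receptor for cysteinyl leukotrienes, was measured at 7.32, 7.71 and 7.62 in F and 9.90, 10.20 and 9.70 in FPD, 5.21-fold higher. CD109, a membrane-anchored protein that binds TGF-beta, was at 5.08, 5.31 and 5.20 in F against 7.32, 7.77 and 7.66 in FPD. Its difference was 2.38 for the brighter of its 2 rows and 1.36 for their mean, called either way (limma adjusted p = 1.02e-08 and 1.02e-06). RRAS, a small GTPase related to RAS, went from 6.56, 6.86 and 6.58 to 8.84, 9.07 and 8.76. DKK1, a secreted inhibitor of Wnt signalling linked to myeloma bone disease, was at 4.34, 4.93 and 4.66 in F, near the array medians, and reached 6.52, 6.80 and 6.94 in FPD. RRAS and DKK1 differed by 2.23 and 2.11.

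The remaining genes among the 12 highest each rose at least 3.73-fold. BMF, a BCL2 family protein with a BH3 domain that promotes apoptosis, rose from 7.08, 6.86 and 6.94 to 9.26, 9.46 and 9.11 (difference 2.32, limma adjusted p = 9.68e-09). SLFN5, a Schlafen family protein, had a difference of 1.95, and ZC3H12A, the endoribonuclease Regnase-1 that cuts inflammatory mRNAs, one of 1.95. The long noncoding RNA GAS6-DT, transcribed divergently from GAS6, differed by 1.91. PIK3IP1, an inhibitor of PI3 kinase, was at 5.26, 5.22 and 5.08 in F and at 6.83, 7.37 and 7.05 in FPD. Together with DDIT4, it places 2 known brakes of the PI3 kinase and mTOR pathway among the 12 highest genes.

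CXCL10, a chemokine that attracts T cells through CXCR3, had the lowest difference. It stood at 7.22, 8.15 and 7.80 in the F arrays and at 5.33, 4.91 and 5.54 in the FPD arrays, 5.52-fold lower (log2 difference -2.46, 0.23 SE, limma adjusted p = 3.33e-06). The lowest F array lay well above the highest FPD array. CBLN2, a secreted organiser of synapses, was at 8.48, 8.67 and 8.40 in F and 5.71, 6.39 and 6.42 in FPD. The chemokine gene CCL3L1 was at 11.21, 11.51 and 11.31 in F and 9.83, 9.73 and 9.74 in FPD, and its near-identical neighbour CCL3 (MIP-1 alpha) was at 8.64, 8.83 and 8.66 in F against 7.68, 7.47 and 7.40 in FPD. Probes may not separate CCL3 from CCL3L1, so their differences of -1.58 and -1.19 may be 1 signal.

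PSAT1, a serine synthesis enzyme, was at 9.52, 9.76 and 9.57 in F and 8.11, 8.27 and 8.04 in FPD, 2.79-fold lower. POLR3G, a subunit of RNA polymerase III found in proliferating cells, fell by a similar amount, from 6.76, 7.04 and 7.10 to 5.49, 5.69 and 5.32. ANKRD37, a target of hypoxia-inducible factor, was at 5.92, 6.71 and 5.79 in F, with replicate 2 highest, and at 4.64, 4.68 and 4.71 in FPD. For all 3 the separation of the groups is again given by the choice. The other 6 of the 12 lowest were the pseudogene LGALS17A (-1.51), CCDC110 (-1.36), the meiotic chromosome protein SYCP3 (-1.36), the inhibitory receptor CD200R1 (-1.25), the cyclin-dependent kinase partner CABLES1 (-1.22) and the kinase STK38L (-1.22).

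**Figure D2:**
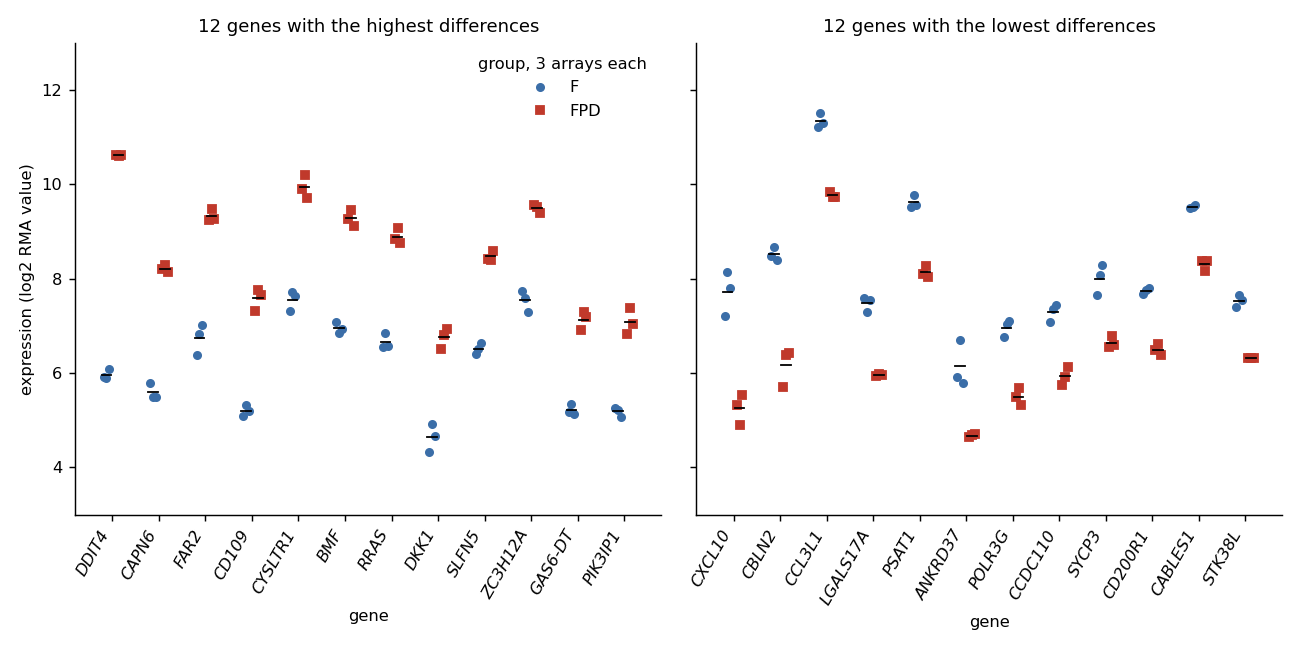
Log2 RMA value (vertical axis) in each F array (blue circles) and FPD array (red squares) for the 12 genes with the highest and the 12 with the lowest called difference. Black bars are group means of 3 arrays. The groups overlap in none of the 24 genes, as the rule that chose them requires.

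Among plasma cell and myeloma transcription factors, 3 of 25 measured genes were higher and 5 lower, with a median log2 difference of -0.02 beside -0.01 for all genes, of which 7.5% were called higher and 6.64% lower. IRF4 was at 11.23, 11.17 and 11.21 in F and 10.06, 10.13 and 10.08 in FPD, 2.17-fold lower (log2 difference -1.12, 0.088 SE, limma adjusted p = 5.51e-07). Its arrays differed by little within a group, and all FPD arrays lay about 1 unit below every F array. MYC was at 10.58, 10.58 and 10.45 in F against 9.89, 9.74 and 9.82 in FPD, a difference of -0.72 (limma adjusted p = 3.34e-05). MYB, a regulator of blood progenitor growth, was at 6.58, 6.79 and 6.84 in F against 5.47, 5.57 and 5.56 in FPD (difference -1.20), and ETS1, which restrains plasma cell differentiation in B cells, at 7.29, 7.41 and 7.45 in F against 6.40, 6.22 and 6.58 in FPD (difference -0.99). These 4 genes had no overlap between groups, while RUNX3 passed the threshold narrowly (-0.45, limma adjusted p = 0.0454) and did not without F replicate 1, F replicate 2, FPD replicate 2 or FPD replicate 3. The called members on the higher side were KLF6 (0.72), IKZF1 (0.59) and KLF13 (0.35), of which KLF13 was not called without F replicate 2 or any 1 FPD array.

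The transcripts of cereblon and its substrates were examined next. IKZF1 was at 8.21, 8.18 and 8.10 in F and at 8.84, 8.68 and 8.74 in FPD (difference 0.59, limma adjusted p = 0.000559). IKZF3 gave values of 3.95, 4.22 and 4.37 in F against 4.63, 3.82 and 4.31 in FPD, near the array medians in both groups and overlapping (0.07, limma adjusted p = 0.88). CRBN, which encodes cereblon, was at 7.79, 8.04 and 8.0 in F against 8.06, 8.25 and 8.18 in FPD (0.22, limma adjusted p = 0.156). Of 15 measured cereblon ligase and substrate genes 3 (20.0%) were higher and 1 (6.67%) lower, beside 7.5% and 6.64% of all genes tested. Beside IKZF1, the calls were CUL4B, the ligase scaffold (0.40), ZNF692 (0.32) and, on the lower side, the translation termination factor GSPT1 (-0.40). Only 1 of the 3 higher calls held without F replicate 2, FPD replicate 2 or FPD replicate 3. The list's median was 0.03.

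Of 23 measured glucocorticoid-induced genes, 8 (34.8%) were higher and 2 (8.7%) lower, beside 7.5% and 6.64% of all genes tested. Differences were above 0 in 14 members and below 0 in 9, with a median log2 difference of 0.21. FKBP5, a chaperone of the glucocorticoid receptor that limits its activity, was at 6.09, 5.56 and 5.58 in F and 7.28, 7.20 and 7.26 in FPD (2.84-fold, limma adjusted p = 7.47e-07). F replicate 1 was the highest of the F arrays and still below all FPD arrays. Beside DDIT4 and PIK3IP1, the list gave TXNIP, an inhibitor of glucose uptake and of thioredoxin, at 9.25, 9.43 and 9.40 in F against 10.50, 10.68 and 10.50 in FPD, and the transcription factor KLF9 at 5.18, 4.74 and 5.04 in F against 6.25, 5.95 and 6.35 in FPD. Smaller rises were called in the chemokine receptor gene CXCR4 (0.92), the clock gene PER1 (0.76) and SESN3, a stress-induced inhibitor of mTORC1 (0.57). The metallothionein MT2A (-0.53) and the kinase SGK1 (-0.39) were called lower, and 1 or neither held when F replicate 2, F replicate 3 or any FPD array was left out.

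The values of this list in F bear on the disagreement between the labels. FKBP5 had a mean of 5.57 in control, 5.74 in F, 7.06 in PD and 7.25 in FPD. None of the 23 genes was called between F and control (limma, lowest adjusted p 0.775), 1 had an unadjusted p under 0.05, and their differences ran from -0.36 to 0.26. Over all genes 1 (0.00672%) was called higher and 0 (0.0%) lower in F than in control, with 895 at an unadjusted p under 0.05. Whether F cells received dexamethasone was not tested by any other measurement here. The mean of the list, after centring each member on its 12 arrays, was -0.26 to -0.24 in the F arrays and 0.23 to 0.28 in the FPD arrays.

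DNA replication genes were lower as a group, with 0 of 29 measured members higher and 22 (75.9%) lower. Over all genes tested, 7.5% were higher and 6.64% lower. The median of the list was -0.40. CDC6, which loads the replicative helicase onto origins, was at 8.70, 8.73 and 8.54 in F and 7.65, 7.67 and 7.63 in FPD, 2.01-fold lower (limma adjusted p = 2.82e-05). TIPIN, a partner of the fork protection protein TIMELESS, was at 7.46, 7.70 and 7.65 in F against 6.54, 6.42 and 6.53 in FPD, a difference of -1.11. MCM10, which activates the helicase, differed by -0.88, and MCM6, a helicase subunit, was at 9.07, 9.22 and 9.31 in F against 8.42, 8.33 and 8.53 in FPD (difference -0.77). E2F1, the transcription factor that drives S phase genes, was at 8.64, 8.5 and 8.19 in F and 7.70, 7.46 and 7.72 in FPD (difference -0.82). All of the 29 members had a difference below 0, and RRM2, the smallest called, differed by -0.28, a call lost without F replicate 2, F replicate 3, FPD replicate 1 or FPD replicate 3.

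A known promoter motif was then counted. The letters TTTGGCGC, TTTCCCGC and TTTCGCGC, 3 forms of the E2F site, were searched on either strand from 250 bases before to 50 after the RefSeq start of each gene (GRCh38.p14). A match occurred in 16 of 25 replication genes with a window (64.0%), against 2.8% of all 27305 windows and 3.7% of the 10749 windows of genes tested. It also occurred in 50 of 812 windows of genes lower in FPD (6.2%) and in 27 of 902 windows of genes higher (3.0%). Overlapping matches count as 1 window. Stretches of 3 promoters with a match are shown, from genes whose fall is given above, with the matches in capitals, 5′ to 3′ on the strand of the gene. They are chr17:40287699-40287903 for CDC6 (plus strand), chr20:33686361-33686565 for E2F1 (minus strand) and chr2:135876419-135876623 for MCM6 (minus strand), where 2 matches on opposite strands overlap at each of 2 places.
CDC6: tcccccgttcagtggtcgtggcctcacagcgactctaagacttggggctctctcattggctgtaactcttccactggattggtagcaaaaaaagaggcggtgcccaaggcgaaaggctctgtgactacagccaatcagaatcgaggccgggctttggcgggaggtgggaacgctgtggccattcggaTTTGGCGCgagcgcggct
E2F1: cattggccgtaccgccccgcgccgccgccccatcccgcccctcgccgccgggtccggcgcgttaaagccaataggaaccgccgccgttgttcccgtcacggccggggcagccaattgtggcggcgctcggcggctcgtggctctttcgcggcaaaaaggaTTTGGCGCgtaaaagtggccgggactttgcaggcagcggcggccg
MCM6: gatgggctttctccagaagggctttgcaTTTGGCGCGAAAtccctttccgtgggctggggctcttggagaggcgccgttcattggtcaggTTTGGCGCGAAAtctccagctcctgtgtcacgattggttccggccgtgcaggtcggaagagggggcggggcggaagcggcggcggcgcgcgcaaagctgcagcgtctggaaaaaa
A match is a description of letters and does not show that E2F1 binds there. TIPIN and MCM10, which also fell, had no match to these 3 forms in their windows, and other forms of the site were not searched.

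Homologous recombination and Fanconi genes had 0 of 14 members higher and 5 (35.7%) lower, with a median of -0.15. Over all genes tested, 7.5% were higher and 6.64% lower. The lowest were XRCC2 (8.27, 8.32 and 8.26 in F, 7.80, 7.34 and 7.82 in FPD), a gene of homologous recombination, and the nuclease EXO1 (9.0, 9.18 and 9.22 in F, 8.59, 8.65 and 8.56 in FPD). The count was 3 without F replicate 2 or FPD replicate 1 and 2 without F replicate 3. Among 19 measured G1 genes, 3 (15.8%) were higher and 8 (42.1%) lower. The D-type cyclins, which activate CDK4 and CDK6, were split: CCND2 was at 10.61, 10.48 and 10.47 in F and 10.12, 9.62 and 10.02 in FPD, and CCND1 had a difference of -0.70, while CCND3 was at 5.94, 5.70 and 5.65 in F against 6.15, 6.20 and 6.33 in FPD (difference 0.46). CDC25A, the phosphatase that activates CDK2, differed by -0.69, and RBL2 (p130), a repressor of E2F targets in resting cells, by 0.39.

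Mitosis and spindle genes, the group closest to the target of filanesib, had a median difference near 0. Of 52 measured members 6 (11.5%) were higher and 2 (3.85%) lower, beside 7.5% and 6.64% of all genes tested. The median was 0.05. KIF11 was at 10.39, 10.42 and 10.62 in F and 10.34, 10.30 and 10.51 in FPD, with overlapping groups (-0.10, 95% interval -0.30 to 0.11, limma adjusted p = 0.632). Cyclin B1 (CCNB1) and the mitotic kinase PLK1 had differences of -0.02 and -0.16, and CDK1 one of -0.30 (limma adjusted p = 0.955, 0.446 and 0.134). Without F replicate 1, the lowest of the F arrays for CDK1, its adjusted p was 0.0126. The called members were PSRC1 (0.55), CCNB2 (0.47), CDC25B (0.45), CDC25C (0.40), PRC1 (0.30) and TOP2A (0.29) on the higher side. The checkpoint protein gene MAD2L1, at 8.60, 8.90 and 8.72 in F and 8.04, 8.20 and 8.16 in FPD, and SKA1 (-0.43) were lower. The higher count was 3 without F replicate 1, F replicate 2 or FPD replicate 3. The call of PRC1 was lost when any 1 of the 6 arrays was left out. That of CDC25C was lost without any F array, FPD replicate 2 or FPD replicate 3. That of TOP2A was lost without F replicate 1, F replicate 2, FPD replicate 1 or FPD replicate 3. Of the 2 lower calls 1 was lost without F replicate 2 or FPD replicate 3.

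The level of this list separated the arrays with filanesib from those without. Its centred mean was 0.07 to 0.17 in the F arrays and 0.15 to 0.21 in the FPD arrays, which overlap, against -0.19 to -0.10 in control and -0.18 to -0.14 in PD. All 52 members had a higher mean in F than in control, 35 of them at an unadjusted p under 0.05, and 0 were called by limma after adjustment. Over all 14884 genes, 895 had an unadjusted p under 0.05. The median difference of F minus control was 0.272 in the list and -0.005 over all genes. The members were read on the same arrays and are not independent observations.

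**Figure D3:**
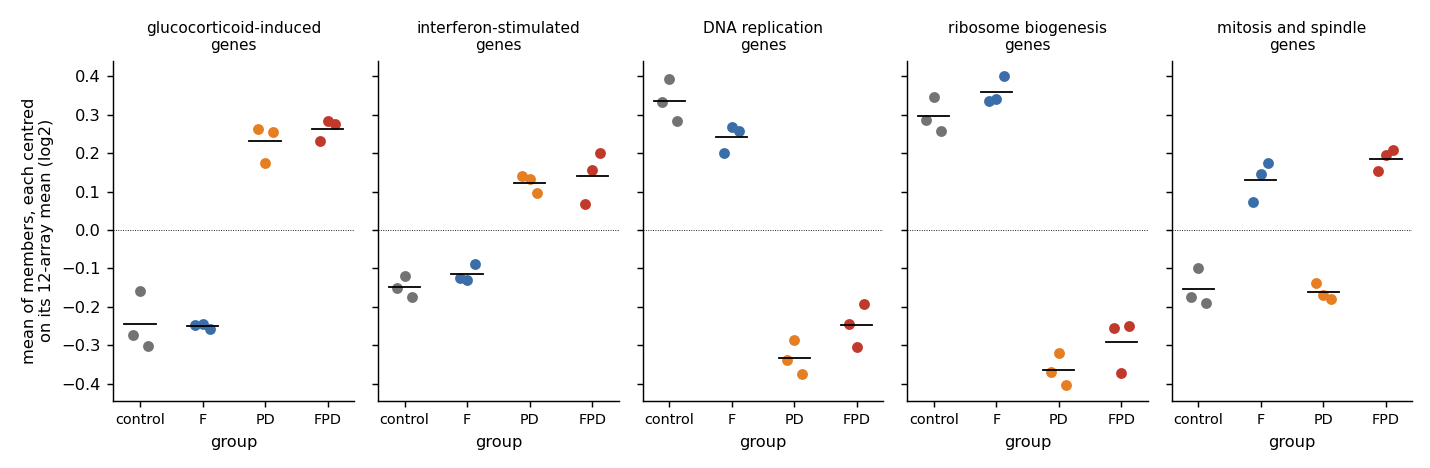
Mean log2 value of 5 gene lists in each of the 12 arrays (vertical axis, each member centred on its mean over all arrays; horizontal axis, group). Points are arrays and bars are means of 3 arrays. F and FPD are apart in every list but mitosis and spindle genes, where both lie above control and PD.

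Ribosome biogenesis genes had the lowest median of the lists. Of 40 measured members 35 (87.5%) were lower and 0 higher, beside 6.64% and 7.5% of all genes tested. All 40 differences were below 0, and the median was -0.66. The list holds MYC and the polyamine enzymes ODC1 (-0.32) and SRM (-0.79) beside nucleolar factors. NOP16, a nucleolar protein, was at 7.80, 7.88 and 7.96 in F and 6.84, 6.76 and 6.81 in FPD (2.11-fold lower, limma adjusted p = 2.48e-06). DDX21, an RNA helicase of the nucleolus, was at 10.49, 10.58 and 10.78 in F against 9.64, 9.44 and 9.62 in FPD, and LYAR, a nucleolar factor of ribosomal RNA processing, at 7.39, 7.48 and 7.72 in F against 6.41, 6.39 and 6.61 in FPD. In the 3 genes the groups stood about 1 unit apart. MRTO4, an assembly factor of the large subunit, was at 8.53, 8.75 and 8.82 in F against 7.74, 7.5 and 7.79 in FPD, and PNO1, which acts in maturation of the small subunit, at 7.70, 7.94 and 8.02 in F against 6.98, 6.88 and 6.81 in FPD. NCL (nucleolin) differed by -0.58. The call of ODC1 was lost without F replicate 2, F replicate 3, FPD replicate 1 or FPD replicate 2.

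Of the ribosome biogenesis genes with a promoter window, 12 of 29 (41.4%) held the E-box CACGTG, which is bound by MYC with MAX and by other factors and reads the same on both strands. The motif was in 7.4% of all windows and 9.0% of those of genes tested, in 125 of 812 windows of genes lower in FPD (15.4%) and in 83 of 902 windows of genes higher (9.2%). Stretches of MRTO4 (chr1:19251625-19251829, plus strand) and PNO1 (chr2:68157708-68157912, plus strand) are shown because both genes fell about 2-fold and hold the letters, in capitals, just after the start.
MRTO4: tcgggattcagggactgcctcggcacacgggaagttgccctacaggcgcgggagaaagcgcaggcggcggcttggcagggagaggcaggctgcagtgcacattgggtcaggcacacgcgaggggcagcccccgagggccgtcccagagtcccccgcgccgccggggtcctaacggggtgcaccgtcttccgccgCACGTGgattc
PNO1: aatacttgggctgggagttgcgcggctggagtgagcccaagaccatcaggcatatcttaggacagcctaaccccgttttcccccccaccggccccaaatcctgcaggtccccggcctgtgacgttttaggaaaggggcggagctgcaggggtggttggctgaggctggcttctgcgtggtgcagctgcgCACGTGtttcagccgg
NOP16, with the larger fall, had no match in its window.

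Genes of the ribosome itself and of translation moved less. Of 35 measured cytoplasmic ribosomal protein genes 4 (11.4%) were lower and 0 higher, beside 6.64% and 7.5% of all genes tested. The median was -0.07. RPL32 was the lowest, at 6.31, 6.25 and 6.33 in F and 5.76, 5.38 and 5.58 in FPD. Many copies of these genes exist as pseudogenes, so their rows are uncertain. The count of 4 was 2 without F replicate 2, F replicate 3, FPD replicate 1 or FPD replicate 2 and 7 among genes above the median level. Aminoacyl-tRNA synthetases, which charge tRNAs with amino acids, were lower in 8 of 13 and higher in 0, with a median of -0.32. IARS1 was at 10.09, 10.16 and 10.16 in F and 9.63, 9.54 and 9.67 in FPD, and YARS1 at 7.84, 7.84 and 7.67 in F against 7.31, 7.17 and 7.36 in FPD. This count was 3 without F replicate 2, F replicate 3, FPD replicate 1 or FPD replicate 2, 4 without FPD replicate 3 and 5 after quantile normalization.

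Among 34 measured interferon-stimulated genes 9 (26.5%) were higher and 0 lower, beside 7.5% and 6.64% of all genes tested. The median was 0.14. ISG20, an exonuclease that degrades viral RNA, was at 5.56, 5.98 and 5.77 in F and 7.37, 7.28 and 7.51 in FPD (3.07-fold, limma adjusted p = 1.00e-07). IFIT3, an adaptor of antiviral signalling, was near the array median in F, at 4.42, 3.74 and 4.12, and at 4.90, 5.44 and 5.27 in FPD, and HERC6, a ubiquitin ligase, was at 5.97, 5.96 and 6.15 in F against 6.98, 7.06 and 7.04 in FPD. These genes had no overlap between groups. Further calls were IFITM2 (0.80), the RNA sensor RIGI (0.68), the transcription factor IRF7 (0.49), MX2 (0.42), XAF1 (0.42) and SP110 (0.33). The call of MX2 was lost without any 1 array other than F replicate 1, that of SP110 without F replicate 1 or any FPD array and that of XAF1 without FPD replicate 3, and the list's median was 0.24 without FPD replicate 1. ERAP2, which trims peptides for MHC class I, was the only call among 5 measured antigen presentation genes, at 8.0, 8.13 and 8.12 in F against 9.0, 9.13 and 9.11 in FPD. CXCL10, listed with the chemokines and itself known as an interferon target, had the opposite direction.

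The core of the interferon-stimulated response element, TTCNNTTTC on either strand, was found in 18 of 27 promoter windows of this list (66.7%), in 8.3% of all windows and in 6.5% of the windows of genes tested. Genes higher in FPD held it in 63 of 902 windows (7.0%) and genes lower in 45 of 812 (5.5%). ISG20 (chr15:88638836-88639040, plus strand) and IFIT3 (chr10:89327817-89328021, plus strand) are shown as the list's highest members, with matches in capitals. In ISG20 the match lies on the opposite strand.
ISG20: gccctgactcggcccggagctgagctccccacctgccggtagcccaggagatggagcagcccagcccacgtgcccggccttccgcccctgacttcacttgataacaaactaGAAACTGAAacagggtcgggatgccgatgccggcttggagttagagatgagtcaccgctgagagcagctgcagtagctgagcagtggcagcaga
IFIT3: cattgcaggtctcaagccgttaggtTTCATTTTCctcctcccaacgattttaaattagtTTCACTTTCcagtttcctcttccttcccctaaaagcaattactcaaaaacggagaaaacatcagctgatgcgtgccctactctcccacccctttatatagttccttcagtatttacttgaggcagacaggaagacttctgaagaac
HERC6 had no match. The letters AGAACA, part of the site of the glucocorticoid receptor, on either strand, were in 2 of 22 windows of glucocorticoid-induced genes (9.1%), beside 14.9% of all windows and 10.6% of those of genes tested, and were not in the window of DDIT4. FKBP5 held 1 match at its start.

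The BCL2 family had 3 of 23 members higher and 2 lower, and 5 higher after quantile normalization. Over all genes tested, 7.5% were higher and 6.64% lower. The median of the family was 0.02, with 12 differences above 0 and 11 below, so it did not move as a group. Beside BMF, the calls were BNIP3L (NIX), a receptor for removal of mitochondria, at 8.02, 8.23 and 7.82 in F and 8.85, 9.19 and 8.83 in FPD, and the survival protein MCL1, at 9.32, 9.26 and 9.28 in F against 9.77, 9.85 and 9.82 in FPD (difference 0.53). BID, which links death receptors to mitochondria, was at 8.38, 8.38 and 8.44 in F against 8.02, 7.95 and 7.87 in FPD, and BNIP1 differed by -0.44. BMF, which promotes apoptosis, and MCL1, which promotes survival, were thus both higher, which describes these 2 genes and not the family. Without F replicate 2, F replicate 3, FPD replicate 2 or FPD replicate 3, 1 of the 2 lower calls was left. BCL2 was at 8.62, 8.36 and 8.46 in F against 8.77, 8.77 and 8.98 in FPD (difference 0.36, limma adjusted p = 0.06) and passed the threshold under some other settings, after quantile normalization at 0.0315. BIM (BCL2L11) had a difference of -0.02 with an interval of -0.25 to 0.21, and BAX one of -0.22 (limma adjusted p = 0.948 and 0.118).

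Among 8 measured caspase, death receptor and inhibitor of apoptosis genes 4 were higher and 1 lower, with a median of 0.26. CFLAR (c-FLIP), which blocks caspase 8 at death receptors, was at 6.63, 6.48 and 6.64 in F and 7.74, 7.83 and 7.91 in FPD, 2.37-fold higher (limma adjusted p = 1.18e-05). APAF1, the scaffold of the apoptosome, was at 4.36, 4.49 and 4.50 in F against 4.93, 4.85 and 4.91 in FPD, TRADD was at 8.08, 7.75 and 7.72 in F against 8.28, 8.24 and 8.38 in FPD, and BIRC2 (cIAP1) at 6.99, 7.26 and 7.27 in F against 7.38, 7.65 and 7.75 in FPD. The groups were apart in all 4, and BIRC2 was not called without F replicate 1, FPD replicate 2 or FPD replicate 3. The lower call was FADD (-0.34, limma adjusted p = 0.0346), which did not pass when any 1 of the 6 arrays was left out. Among 15 measured p53 targets 1 (6.67%) was higher and 1 (6.67%) lower, beside 7.5% and 6.64% of all genes tested. TP53I3, an oxidoreductase, was higher, at 6.17, 6.09 and 6.20 in F against 6.85, 7.02 and 7.14 in FPD. AEN was lower (-0.33), a call lost without F replicate 1, F replicate 2, FPD replicate 2 or FPD replicate 3. The higher count was 3 after quantile normalization, and the median of this list changed sign to 0.03 among genes above the median level. The median of the p53 list was -0.11.

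Surface antigens of myeloma cells had 2 of 17 members (11.8%) higher and 5 (29.4%) lower, beside 7.5% and 6.64% of all genes tested. The median was -0.27. SLAMF7 (CS1), the target of the antibody elotuzumab, was at 10.72, 10.80 and 10.72 in F and 10.10, 10.18 and 10.06 in FPD, 1.55-fold lower (limma adjusted p = 9.26e-05). CD70, the ligand of CD27, was at 9.05, 9.28 and 9.24 in F against 8.38, 8.43 and 8.48 in FPD, and the NKG2D ligand MICB at 9.87, 9.95 and 9.88 in F against 9.23, 9.17 and 9.19 in FPD. All 3 stood apart between groups. CD44 (-0.38) and CD28 (-0.36) were called lower too, CD28 not without FPD replicate 3. NCAM1 (CD56) was higher, at 5.13, 5.20 and 4.79 in F against 6.10, 6.02 and 5.92 in FPD, as was LY9 (CD229) at 8.20, 8.21 and 8.12 in F against 8.66, 8.66 and 8.68 in FPD. CD38, the target of daratumumab, was at 7.84, 7.96 and 7.73 in F against 7.74, 7.83 and 7.64 in FPD, and the interval of its difference ran from -0.32 to 0.11.

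Of 26 chemokine and chemokine receptor genes 4 (15.4%) were higher and 4 (15.4%) lower, beside 7.5% and 6.64% of all genes tested. Beside CXCL10, CCL3L1 and CCL3, the receptor CCR1 was called lower (-0.27), a call lost when any 1 of the 6 arrays was left out. CXCR4, which holds plasma cells in bone marrow through CXCL12, was at 10.03, 10.22 and 10.20 in F and 10.99, 11.10 and 11.12 in FPD (limma adjusted p = 5.48e-06). CCR2 was at 6.29, 6.86 and 6.45 in F against 7.37, 7.11 and 7.30 in FPD, CX3CR1 at 5.97, 5.93 and 6.14 in F against 6.79, 6.60 and 6.25 in FPD, and CCL4 at 4.68, 4.87 and 4.70 in F against 5.45, 5.49 and 5.12 in FPD. The groups were apart in all 4 genes. Of the 4 higher calls 2 held without F replicate 1, FPD replicate 1 or FPD replicate 2. Of 21 measured NF-kB and inflammatory genes 4 (19.0%) were higher and 2 (9.52%) lower, with a median of 0.00. REL (0.51) and TNIP1 (0.34) were higher with CFLAR and BIRC2, PLEK (-0.54) and TRAF3 (-0.29), a brake of noncanonical NF-kB, were lower. The higher count was 2 without FPD replicate 2 or FPD replicate 3. The lower count was 0 without FPD replicate 1 and 1 without F replicate 2, F replicate 3 or FPD replicate 2.

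Cholesterol synthesis had 7 of 17 members (41.2%) lower and 0 higher, beside 6.64% and 7.5% of all genes tested. The median was -0.21. MSMO1 was at 9.56, 9.73 and 9.51 in F and 8.83, 9.07 and 8.75 in FPD, SQLE (squalene epoxidase) at 6.83, 7.0 and 6.94 in F against 6.24, 6.24 and 6.42 in FPD, and INSIG1, which holds the pathway's transcription factor in the ER, at 10.30, 10.57 and 10.38 in F against 9.74, 9.86 and 9.79 in FPD. None of the 3 overlapped between groups. Of 18 serine, one-carbon and ATF4 stress genes 5 (27.8%) were lower and 2 (11.1%) higher. With PSAT1, its pathway partners PHGDH (-0.48) and SHMT2 (-0.51) fell, as did the mitochondrial folate enzyme MTHFD1L, at 7.09, 7.06 and 7.20 in F against 6.34, 6.33 and 6.52 in FPD, and the pseudokinase TRIB3 (-0.59). The higher calls, VLDLR (0.43) and SESN2 (0.40), were both lost without F replicate 3, and 1 was lost without F replicate 2, FPD replicate 1 or FPD replicate 2.

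Glycolysis and hypoxia genes had 5 of 18 (27.8%) lower and 2 (11.1%) higher, beside 6.64% and 7.5% of all genes tested. Hexokinase 2 (HK2) was at 7.85, 7.59 and 7.72 in F and 7.12, 6.92 and 7.25 in FPD and lactate dehydrogenase A (LDHA) at 7.78, 7.88 and 7.85 in F against 7.31, 7.32 and 7.22 in FPD. VEGFA (-0.54) and PGK1 (-0.38) fell as well, PGK1 in a call lost without F replicate 2, F replicate 3, FPD replicate 1 or FPD replicate 2. EGLN1 (0.41) was called higher beside BNIP3L, and 1 of the 2 was left without F replicate 2 or FPD replicate 3. Of 13 oxidative phosphorylation genes 1 (7.69%) was lower, UQCRC2 (-0.50), beside 6.64% of all genes tested. ER folding and secretion, the secretory machinery of a plasma cell, had 4 of 21 lower and 1 higher, with a median of -0.12. SEL1L, of the ER-associated degradation complex, was at 9.87, 9.93 and 9.96 in F against 9.14, 9.16 and 9.31 in FPD, and ERN1 (IRE1 alpha), the sensor that splices XBP1, at 8.86, 8.57 and 8.62 in F against 9.46, 9.29 and 9.38 in FPD. The lower count was 7 without F replicate 1, 2 without F replicate 2, FPD replicate 1 or FPD replicate 2, and 1 without F replicate 3 or FPD replicate 3.

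Lysosome genes had 7 of 22 members higher and 1 lower, with a median of 0.17. CD68, a lysosomal membrane protein often used as a myeloid marker, was at 8.68, 8.67 and 8.59 in F and 10.00, 10.18 and 10.05 in FPD, 2.69-fold higher (limma adjusted p = 6.28e-08). The other 7 measured myeloid markers were not called, with MPO lowest at a limma adjusted p of 0.422, and the list's centred mean was -0.20 to -0.05 in F and 0.04 to 0.11 in FPD, CD68 included. CTSZ (cathepsin Z) was at 6.76, 6.83 and 6.83 in F against 7.64, 7.34 and 7.61 in FPD. CTSS (0.59), CD63 (0.51), HEXA (0.46), CTSB (0.38) and PSAP (0.28) were higher and CTSL (-0.60) lower, a call that was lost without F replicate 2, F replicate 3, FPD replicate 1 or FPD replicate 3. PSAP was not called when any 1 of the 6 arrays was left out. CR2 (CD21), the only call among 4 measured B cell markers, was at 7.05, 6.87 and 6.95 in F and 6.05, 5.84 and 6.14 in FPD. Among MAP kinase feedback genes, beside 7.5% higher and 6.64% lower over all genes tested, 2 of 25 (8.0%) were higher, RRAS and the phosphatase DUSP4 (7.77, 7.70 and 7.42 in F, 8.59, 8.60 and 8.43 in FPD), and 3 lower, MYC, CCND1 and DUSP2 (-0.64).

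**Figure D4:**
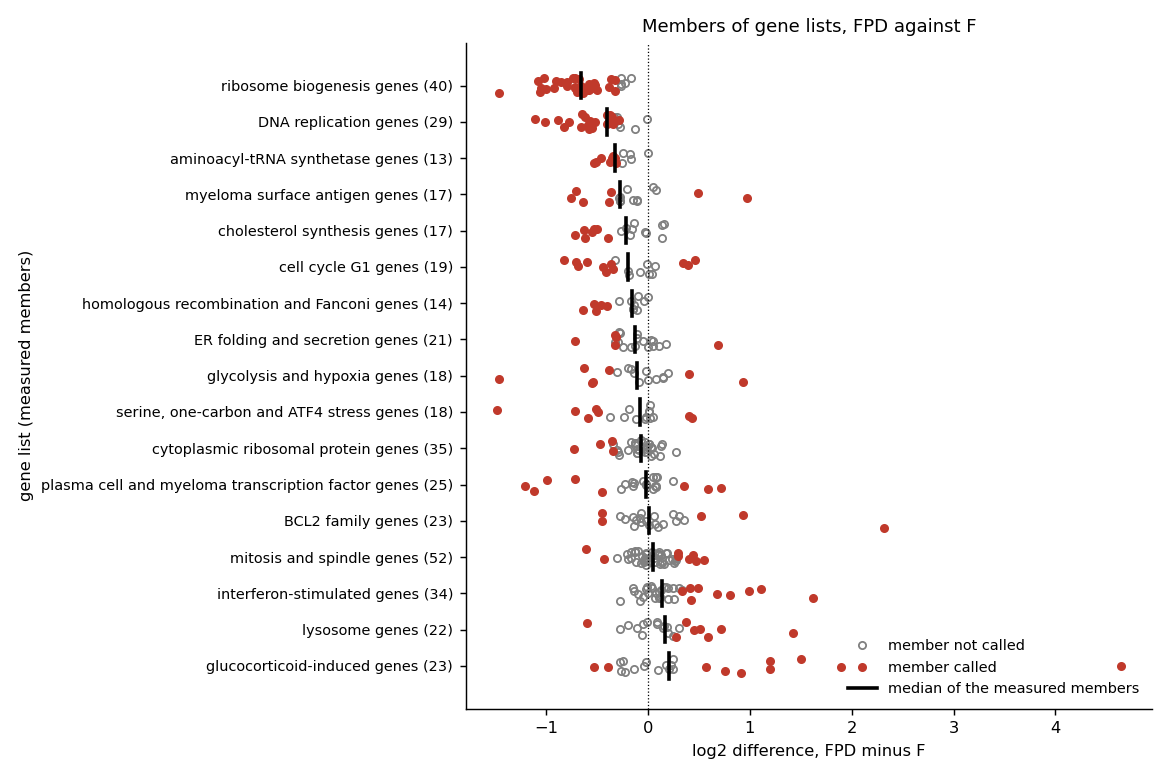
Log2 difference of FPD minus F (horizontal axis) for the measured members of some of the gene lists (vertical axis, number of members in brackets). Filled points are called members and open points are not. Black bars are medians, from -0.66 in ribosome biogenesis to 0.21 in glucocorticoid-induced genes.

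A row for the locus of a microRNA, MIR142, was named after its values were seen, since small RNAs were left out of the ranked names. It was at 8.91, 8.41 and 8.44 in F and 7.82, 7.34 and 7.41 in FPD, 2.09-fold lower (log2 difference -1.06, limma adjusted p = 0.00148). In each group replicate 1 was highest, and the groups did not overlap. miR-142 is abundant in blood cells, and the row reads the transcript of the locus, not the mature forms. These forms, from RefSeq (GRCh38.p14, minus strand, chr17:58331245-58331267 for the 3p arm and chr17:58331283-58331303 for the 5p arm), are shown with the seed, bases 2 to 8, in capitals, since the 2 arms carry different seeds and so different targets.
hsa-miR-142-3p: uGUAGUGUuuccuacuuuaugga
hsa-miR-142-5p: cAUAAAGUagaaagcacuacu

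The step from F to FPD was also set against the step from control to PD, in which pomalidomide and dexamethasone were added without filanesib. By the title of the F arrays both steps add the same 2 drugs, whereas by their treatment label F cells already held dexamethasone and the steps add different drugs. In the latter pair 1018 genes (6.84%) were higher and 1284 (8.63%) lower, and after quantile normalization 1157 and 1081, so which side had more calls depends on the scaling. Across the 14884 genes the 2 differences had a Pearson r of 0.781 and a Spearman rho of 0.592, given as a description, since genes are not independent replicates. Higher in both were 711 genes, 63.7% of those higher in FPD than F and 69.8% of those higher in PD than control. Lower in both were 717 genes, 72.6% and 55.8% of the lower calls. The count of genes called in opposite directions was 0. A further 677 genes were called between FPD and F and not between PD and control, and 631 of them had the same sign in both.

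For single genes the steps are set side by side. The difference of DDIT4 was 4.65 from F to FPD and 4.46 from control to PD, that of FKBP5 1.5 and 1.49, and that of CXCL10 -2.46 and -2.44. IRF4 differed by -1.12 and -1.23, BMF by 2.32 and 1.92, and MYC by -0.72 and -0.52. All 6 genes were called in both pairs. Of genes at least 2-fold higher in FPD than F, 104 of 106 were called higher in PD than control, and of those 2-fold lower, 35 of 36. The exceptions, named after their values were seen, were the pseudogene RPL23AP32 (1.33 and 0.43), the microRNA locus MIR1299 (1.08 and 0.01) and KLHL4 (-1.03 and -0.43).

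The difference of the 2 steps, called a departure here, was tested for every gene in the same limma model. It measures departure from additivity on the log2 scale only if F cells had no dexamethasone, which the labels do not settle. It was called for 0 genes above 0 (0.0%) and 0 genes below 0 (0.0%), with a lowest adjusted p of 0.888. An unadjusted p under 0.05 was found for 833 genes, where 0.05 of the genes tested is 744.2, and 476 of them were above 0 and 357 below. The median width of the 95% interval of a departure was 0.66 log2 units, which limits what 3 arrays a group can resolve in a single gene. The lowest unadjusted p above 0 belonged to ZNF491 (0.67), GH1 (1.01), KRTAP10-12 (0.53), RPL23AP32 (0.90) and ZNF70 (0.64). Below 0 they were BAALC-AS2 (-0.81, unadjusted p = 0.000175), ZNF844 (-0.56), NEUROD2 (-0.64), SEMG1 (-0.56) and TCEAL2 (-0.70). Of these 10 genes, 8 had a mean level below the gene median of 5.39.

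By list, the medians of the 2 steps were -0.66 and -0.61 for ribosome biogenesis, 0.21 and 0.17 for glucocorticoid-induced genes and 0.14 and 0.16 for interferon-stimulated genes. Replication genes had medians of -0.40 from F to FPD and -0.68 from control to PD, with 22 and 26 of 29 members called lower. Their median departure was 0.19, beside 0.01 for all genes tested. It was above 0 in 25 of 29 members, and in 7812 of all 14884 genes. Among the 25 were E2F1 (0.38, 95% interval 0.03 to 0.74) and MCM6 (0.30, 0.02 to 0.58), with a limma adjusted p of at least 0.888 in each. The intervals are for single genes and are not adjusted for the number of genes. G1 genes had medians of -0.20 and -0.44, and CDC25A a departure of 0.43 (0.10 to 0.77). The list mean of replication genes was 0.20 to 0.27 in F and 0.28 to 0.39 in control, and -0.31 to -0.19 in FPD and -0.38 to -0.29 in PD. None of these departures passed the test across genes, and none is called a difference here.

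**Figure D5:**
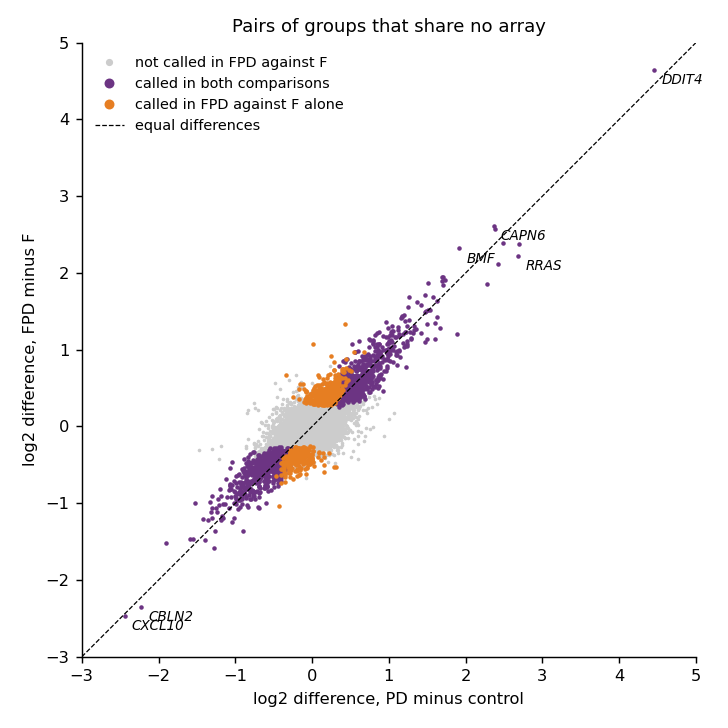
Log2 difference of FPD minus F (vertical axis) against that of PD minus control (horizontal axis) for 14884 genes. Purple points are called in both comparisons, orange points in FPD against F alone, and the dashed line marks equal differences. DDIT4, at 4.46 and 4.65, and CXCL10, at -2.44 and -2.46, lie close to the line.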

How the data were processed

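The deposited values are log2 expression values, 1 per transcript cluster and array, which the authors produced by RMA in Affymetrix Expression Console, according to the submitters' processing notes. RMA subtracts background, gives all arrays 1 distribution and combines the probes of a cluster, so a change in total RNA per cell would not show and differences of dim genes are understated. Of versions, settings and genome build, each is not given in the sources used here. Detection calls were not used. Of 53617 rows, 16098 had exactly 1 gene symbol in the platform annotation, 0 had several and 37519 had none. All matched the RefSeq gene table (GRCh38.p14), which gave current names. The 779 genes with several rows were represented by the row with the highest mean, which left 14884 genes, tested without a filter.

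Group means of all 12 arrays were fitted with limma 3.58.1 (lmFit, then eBayes, leaving 8 residual degrees of freedom) in R 4.3.3, two-sided, with p-values adjusted by Benjamini-Hochberg over all genes. The contrasts were FPD minus F, PD minus control, their difference, and F minus control. The fit was checked on simulated data. The members, the gene lists and the rule for named genes were chosen with earlier results of these data known. The rule takes the 12 highest and 12 lowest differences among called genes whose arrays do not overlap, 5 departures each way, the 2 members of each list at either end and 18 fixed genes, of which NR3C1 and TSC22D3 were not analysed here. Where a list had 5 or fewer calls in a direction they could all be named, and further called members of longer lists were named after their values were seen. Lists are described by counts and medians, without a test. The 30 lists held 888 genes, of which 544 were measured. Alternatives covered the scaling, the filter, the rows, the arrays fitted, the replicate block, the variance model and leaving out each array. The replicate numbers of F and FPD were not taken as pairs, since no label states what arrays of the same number share. Correlations of same-numbered deviations were 0.117, 0.083 and 0.124, against -0.085 to -0.022 for F and FPD arrays of different numbers. Counts from a fit with the replicate block are given below.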

Additional observations from a re-analysis of the deposited data

Results flagged for a closer look

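The rows without a gene symbol entered no comparison of genes. Tested with all rows of the table in limma, 581 of these 37519 rows were higher and 630 lower in FPD than in F, 3.23% of them, against 8.93% of the 16098 rows with a symbol. At least 2-fold, 103 were higher and 77 lower. Their median level was 3.84, against 5.33 for rows with a symbol. Which transcripts these rows measure was not analysed here.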

How the results depend on the processing

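Among 220 genes, the 149 chosen by the rule and 71 others named in the text, no difference changed sign with a call on either side under the 13 alternative settings in which they were tested, and 116 of the 153 called were called under every one of these. With all 53617 rows tested in place of 14884 genes, the counts for FPD against F were 741 higher and 641 lower, and the cause was not tested. Leaving out 1 array gave 771 to 993 genes higher and 657 to 985 lower, with 657 without F replicate 2. Differences between the steps F to FPD and control to PD were called for 0 genes in every setting, and an unadjusted p under 0.05 was found for 469 genes when only genes above the median mean were tested, which are fewer, and for 608 to 1104 without 1 array. With the replicate block the counts were 1093 higher and 964 lower. No label states what arrays of the same number share. In deviations from the group means, each F array correlated best with the FPD array of its own number, and the cause was not tested. Other counts over all genes, of FPD against F and of PD against control, stayed within 1.5 times. Counts of list members moved by more in many lists. Beside those already given, p53 targets higher went from 1 to 3 after quantile normalization, with the compared arrays only, with a trended and robust variance and among genes above the median level, BCL2 family members higher from 3 to 5 in these settings except with the compared arrays only, and ER folding members lower from 4 to 2 after quantile normalization. With all rows tested the higher counts of cereblon ligase and substrate genes went from 3 to 1 and of chemokines from 4 to 2. Among genes above the median level, which leaves fewer members, the median of glucocorticoid-induced genes was 0.57. Dim rows limit the depth of the data: 321 of the 2105 calls had a mean level below 5.39, where background cannot be separated with certainty.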
